A study of Mus musculus with 30 samples.

Results

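The regions described here are the binding sites around the genes of the 9 transcription factors that were profiled in the study: Atf2, Atf7, Jun, Fosl2, Junb, Klf4, Klf5, Vdr and Rxra. A site was taken as a member when the midpoint of its 400 bp interval lay in a fixed mm9 window around one of these genes, 200 to 300 kb wide, and 107 of 34724 sites (0.308%) did. The study mapped the factors by chromatin immunoprecipitation with sequencing (ChIP-seq) in 3T3-L1 cells, a mouse line of fibroblast-like pre-adipocytes that can become fat cells. All 9 libraries came from cells taken 4 h after a hormone mix was added, which per the labels held 10% fetal calf serum, insulin at 1 μg per ml, isobutylmethylxanthine (IBMX) at 0.5 mM and dexamethasone at 1 μM. There was 1 library per factor, named in the labels as ATF2, ATF7, cJun (the product of Jun), FOSL2, JunB, KLF4, KLF5, VDR and RXR. No uninduced library was used here, so nothing below is a change with induction. The label of the RXR library names no subtype, and RXR is set against Rxra, the RXR gene among the 9 windows.

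Genes of transcription factors are often bound by their own products, which lets a factor raise or damp its own supply, and by the products of related genes. ATF2 and ATF7 are close relatives that grip DNA in pairs through a bZIP domain. The subunits of AP-1, among them cJun, JunB and FOSL2, carry such a domain too, and Jun is a textbook case of a gene that its own product, paired with ATF2, can switch on. KLF4 and KLF5 are zinc-finger proteins that bind GC-rich elements, and both act early in the making of fat cells. VDR, the receptor for vitamin D, binds DNA together with RXR, and Vdr is a known target of its own product in several tissues. The labels name no vitamin D compound among the agents added.

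The sequences just upstream of the gene starts show which letters these factors could read there. They come from RefSeq (build GRCm38.p6), which held 8 of the 9 genes; Klf5 was not matched. Their coordinates are not comparable with the mm9 positions of the sites, and no site was placed on them. Over the 250 bases before the start, 5 patterns were searched on both strands: TGANTCA (the AP-1 element), TGANNTCA (the longer element of ATF and CRE type), CCNCNCCC (the KLF element), AGGTCA (the half-site of nuclear receptors) and GGTTCA (a half-site of VDR). Matches of CCNCNCCC can overlap each other, and capitals mark every match of any pattern. Jun is shown because its start was the only 1 of the 8 first-listed starts with a match of TGANNTCA, Junb as its close relative with none, Klf4 for its 9 matches of CCNCNCCC, and the second RefSeq start of Rxra because it held receptor half-sites.
Jun, chr4:95052223-95052472, minus strand: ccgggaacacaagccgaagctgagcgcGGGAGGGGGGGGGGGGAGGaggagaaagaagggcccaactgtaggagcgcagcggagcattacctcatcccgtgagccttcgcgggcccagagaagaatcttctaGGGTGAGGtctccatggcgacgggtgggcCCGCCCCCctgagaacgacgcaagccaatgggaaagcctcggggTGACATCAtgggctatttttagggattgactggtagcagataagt
Junb, chr8:84978749-84978998, minus strand: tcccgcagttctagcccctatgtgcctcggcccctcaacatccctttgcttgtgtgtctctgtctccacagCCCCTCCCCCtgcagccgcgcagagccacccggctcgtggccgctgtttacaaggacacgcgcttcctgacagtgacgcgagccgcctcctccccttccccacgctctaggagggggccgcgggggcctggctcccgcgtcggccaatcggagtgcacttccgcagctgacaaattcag
Klf4, chr4:55532476-55532725, minus strand: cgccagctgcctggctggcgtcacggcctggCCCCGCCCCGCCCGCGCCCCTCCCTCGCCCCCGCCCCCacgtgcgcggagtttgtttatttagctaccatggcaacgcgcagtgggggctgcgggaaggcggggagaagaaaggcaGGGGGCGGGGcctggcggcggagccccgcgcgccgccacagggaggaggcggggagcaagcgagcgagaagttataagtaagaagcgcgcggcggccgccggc
Rxra, second start, chr2:27709042-27709291, plus strand: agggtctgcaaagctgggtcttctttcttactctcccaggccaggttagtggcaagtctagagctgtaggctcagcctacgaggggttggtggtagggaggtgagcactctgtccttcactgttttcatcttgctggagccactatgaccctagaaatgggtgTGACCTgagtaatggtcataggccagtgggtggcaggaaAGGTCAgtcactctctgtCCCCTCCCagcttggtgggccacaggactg

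In the Jun sequence the match was TGACATCA, from 45 to 38 bases before the start; 11.9% of all 32851 RefSeq promoters held a match of TGANNTCA in this stretch. CCNCNCCC matched in 8 of 8 genes, with 1 match in Fosl2 and 9 each in Jun and Klf4, against 45.9% of all promoters. In Jun most of these matches overlap in 1 run of G. The pattern is rich in C, and the GC content of these first-listed stretches ran from 61.2% (Jun and Vdr) to 81.2% (Rxra). Promoters of like GC content were not compared. TGANTCA matched in none of the 8, against 6.75% of all promoters, and GGTTCA in none, against 8.85%. AGGTCA matched in no first-listed start, and the second start of Rxra held 2 matches, against 14% of all promoters. A match is a stretch of letters, not a bound site, and a missing match speaks for this stretch alone.

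Binding around these genes was dense but mostly of few factors. The windows held 4.93 sites per 100 kb, against 1.36 per 100 kb between the first and the last site of the chromosomes. Vdr had 24 sites, Fosl2 18, Junb 15, Rxra 14, Atf7 and Jun 11 each, Klf5 6, Klf4 5 and Atf2 3. To place these numbers, the chromosomes were cut into consecutive windows of the same width, and in all 9 cases the gene's window held more sites than the median genome window, which had 1 or 2. At least 24 sites were found in 0.620% of the genome windows of 260 kb, the width used for Vdr. At least as many sites as at Fosl2 were found in 1.22%, as at Junb in 1.81%, as at Jun in 5.65% and as at Rxra in 5.87% of the genome windows. Further down were Atf7 with 11.5%, Klf5 with 18.8% and Klf4 with 22.7%. The window of Atf2, with 3 sites in 280 kb, was matched or exceeded by 43.8% of genome windows and thus lay near the middle of that range. Genome windows include stretches with no gene, and windows around other genes were not analysed here. With 1 library per factor and no read numbers in the lists, there is no replicate error, no depth and no test for any value below.

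**Figure D1:**
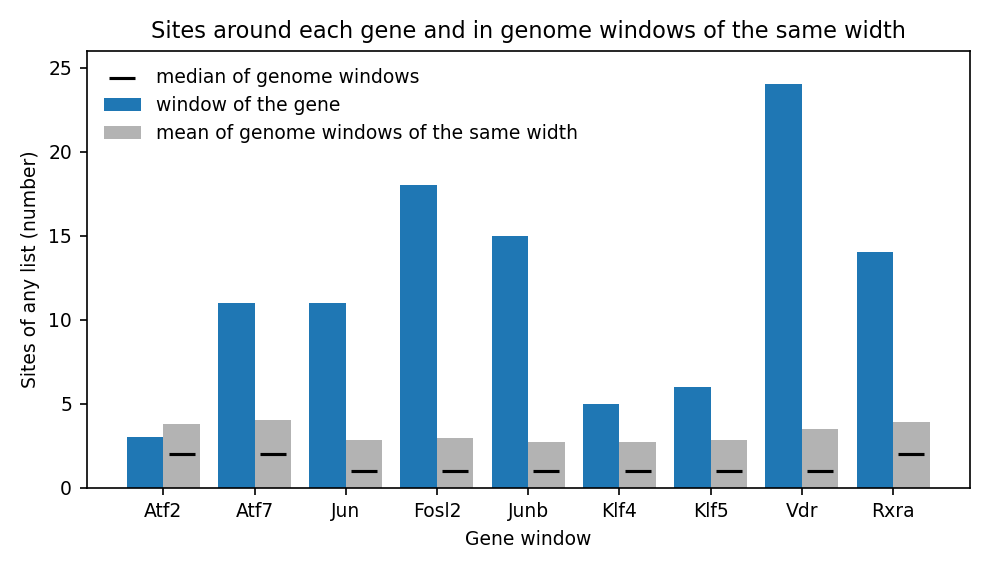
Bars give the number of sites of any list in the window of each gene (blue) and the mean over consecutive genome windows of the same width (grey), with the median as a black line. Vdr (24 sites) and Fosl2 (18) stand highest, and Atf2 (3) lies below the mean of 3.79.

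In RefSeq's order of protein-coding genes along the chromosome (build GRCm38.p6), Atf2 lies between Chn1 and Atp5g3, Atf7 between Npff and Atp5g2, Jun between Mysm1 and Fggy, Fosl2 between Babam2 and Plb1, and Junb between Prdx2 and Hook2. Klf4 lies between Rad23b and Actl7b, Klf5 between Pibf1 and Klf12, Vdr between Hdac7 and Tmem106c, and Rxra between Wdr5 and Col5a1. Which of these reach into the mm9 windows, and where exons, introns and start sites lie, was not analysed here. Sites are therefore assigned to a window and not to a gene, and their place is given as the distance from the middle of the window, below (towards lower coordinates) or above it.

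The factors listed around these genes differed from those listed over all sites. KLF5 was listed at 58 of the 107 sites (54.2%, exact Clopper-Pearson 95% interval 44.3 to 63.9), against 49.3% of all sites, and ATF2 at 47 (43.9%, 34.3 to 53.9), against 33.3%. ATF7 was listed at 23 sites (21.5%, 14.1 to 30.5), close to its 21.2% over all sites. The 2 ATF factors and KLF5 were thus at or above their level over all sites. VDR was listed at 25 sites (23.4%, 15.7 to 32.5), against 34.0%, and RXR at 17 (15.9%, 9.54 to 24.2), against 34.8%. JunB, FOSL2 and KLF4 were also listed at 17 sites each, 15.9% in every case, against 29.0% for JunB, 18.1% for FOSL2 and 16.9% for KLF4. cJun was listed at 12 (11.2%, 5.93 to 18.8), against 17.8%. The intervals of ATF2, JunB, VDR and RXR thus left out the share over all sites, ATF2 above it and the other 3 below it, and those of the other 5 factors held it. Without any 1 of the 9 windows, the share stayed between 41.9% and 45.1% for ATF2, 13.5% and 17.4% for JunB, 21.3% and 26.5% for VDR, and 13.5% and 17.7% for RXR. The intervals cover counting error only, and neighbouring sites are not independent.

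**Figure D2:**
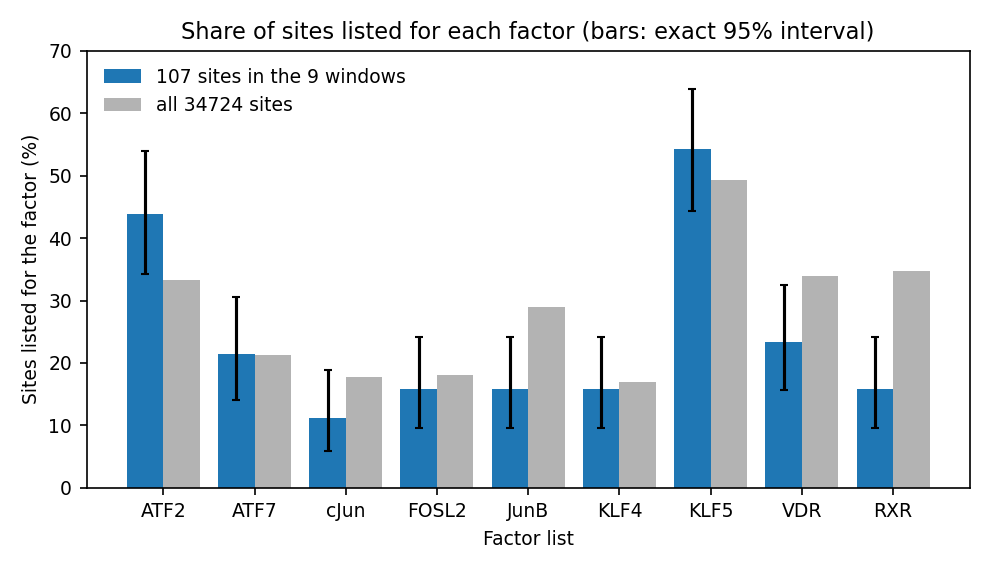
Blue bars give the share of the 107 sites listed for each factor with its exact 95% interval, and grey bars the share of all 34724 sites. ATF2 (43.9% against 33.3%) stands above its grey bar, and JunB, VDR and RXR stand below theirs by more than the interval.

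By family, a KLF factor was listed at 61 sites (57.0%, exact 95% interval 47.1 to 66.5, against 51.6% of all sites) and an ATF factor at 53 (49.5%, 39.7 to 59.4, against 40.5%), and both intervals held the share over all sites. A nuclear receptor was listed at 30 (28.0%, exact 95% interval 19.8 to 37.5, against 46.0%) and an AP-1 subunit at 29 (27.1%, 19 to 36.6, against 41.0%). ATF factors without any AP-1 subunit made up 41 sites (38.3%, 29.1 to 48.2), against 25.2% of all sites. The reverse, AP-1 without ATF, made up 17 sites (15.9%, 9.54 to 24.2), against 25.7%.

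Most sites were listed for a single factor: 56 of 107 (52.3%, exact 95% interval 42.5 to 62.1), against 43.3% of all sites. KLF5 alone accounted for 20 of them, 18.7% of the 107 sites against 11.8% of all sites. ATF2 alone accounted for 17, 15.9% against 9.36%, and each was spread over 8 windows. Hotspots, sites with 5 or more factors, numbered 10 (9.35%, 4.57 to 16.5), against 16.2% of all sites, a share that lies within the interval. They lay in 5 windows: 3 at Fosl2, 2 each at Jun, Vdr and Rxra, and 1 at Klf5. KLF5 was listed at 10 of these 10, at least 1 receptor at 10 and JunB at 8, near their shares over all hotspots of 93.5%, 93.6% and 81.5%. All 9 factors met at 2 sites (1.87%, against 1.45% of all sites), at Klf5 and at Vdr. In all, the 107 sites showed 48 different combinations of factors, 32 of them at 1 site. The most frequent one with more than 1 factor was ATF2, ATF7 and KLF5, at 4 sites in 4 windows (3.74%, against 1.10% of all sites).

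**Figure D3:**
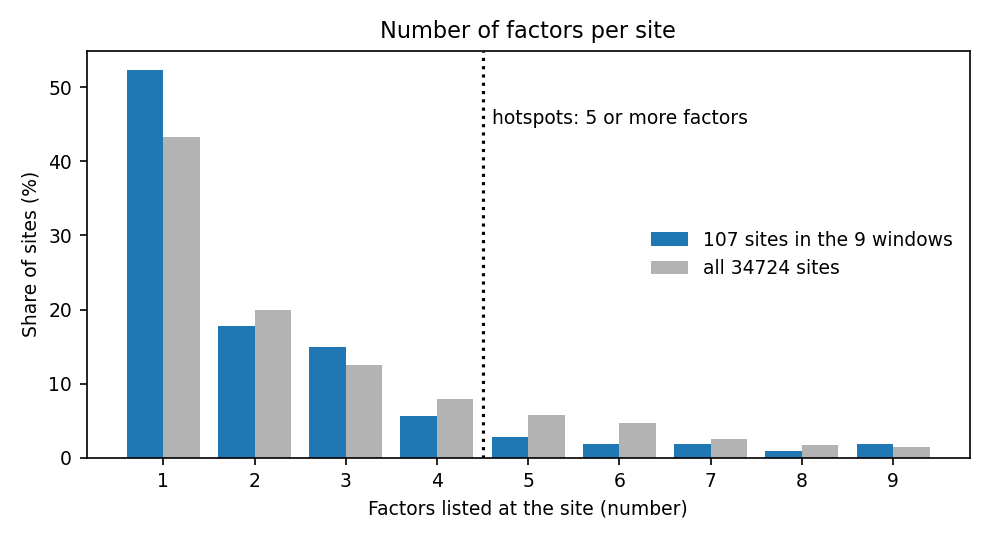
Bars give the share of sites by the number of factors listed, for the 107 sites (blue) and all 34724 sites (grey); hotspots lie to the right of the dotted line. Sites with 1 factor are 52.3% against 43.3%, and the blue bars are lower from 4 to 8 factors.

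The question that joins the 9 windows is whether each factor was found at its own gene. It was at 8 of 9: 5 FOSL2 sites at Fosl2, 4 ATF7 sites at Atf7, 3 cJun sites at Jun, 3 VDR sites at Vdr, 2 KLF5 sites at Klf5, and 1 site each for ATF2 at Atf2, JunB at Junb and RXR at Rxra. KLF4 had no site in the Klf4 window. Factors were found at each other's genes to a like extent: of the 72 combinations of a window with another factor, 60 (83.3%) had a site. The difference between 8 of 9 and 60 of 72 was not tested. A window held 2.22 sites of its own factor on average and 2.96 of each other factor. Of all sites in a window, the share listed for the own factor was above the factor's share over all sites at 3 genes (Atf7, Jun and Fosl2), equal at Atf2, and below at 5. For each of Atf2, Atf7, Jun, Fosl2, Klf4 and Klf5 the exact 95% interval of the own share held the share over all sites. It did at Junb as well (6.67%, 0.169 to 31.9, against 29.0%), but at Vdr (12.5%, 2.66 to 32.4, against 34.0%) and Rxra (7.14%, 0.181 to 33.9, against 34.8%) it ended just below it. Both receptors were also low over the 107 sites as a whole (VDR 23.4%, RXR 15.9%). At Junb, VDR was listed at 13.3% of sites and RXR at 6.67%, and neither had a site at Atf2. At Klf4 both stood at 40.0%, and VDR at Klf5 and RXR at Jun were also above their shares over all sites. Whether either receptor was scarcer at its own gene than at the other genes was not tested.

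Of the 20 own-factor sites, 8 (40.0%) were hotspots and 1, a KLF5 site at Klf5, had no other factor. Over the whole lists, 28.8% (ATF2) to 60.1% (KLF4) of a factor's sites were hotspots and 5.07% (KLF4) to 28.1% (ATF2) had no other factor. At Jun, Fosl2, Klf5, Vdr and Rxra all 9 factors were present somewhere in the window. The 13 empty combinations lay in the other 4 windows: 5 at Klf4, 4 at Atf2, 3 at Atf7 and 1 at Junb. A factor that is not listed may be bound below the authors' threshold for a peak.

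**Figure D4:**
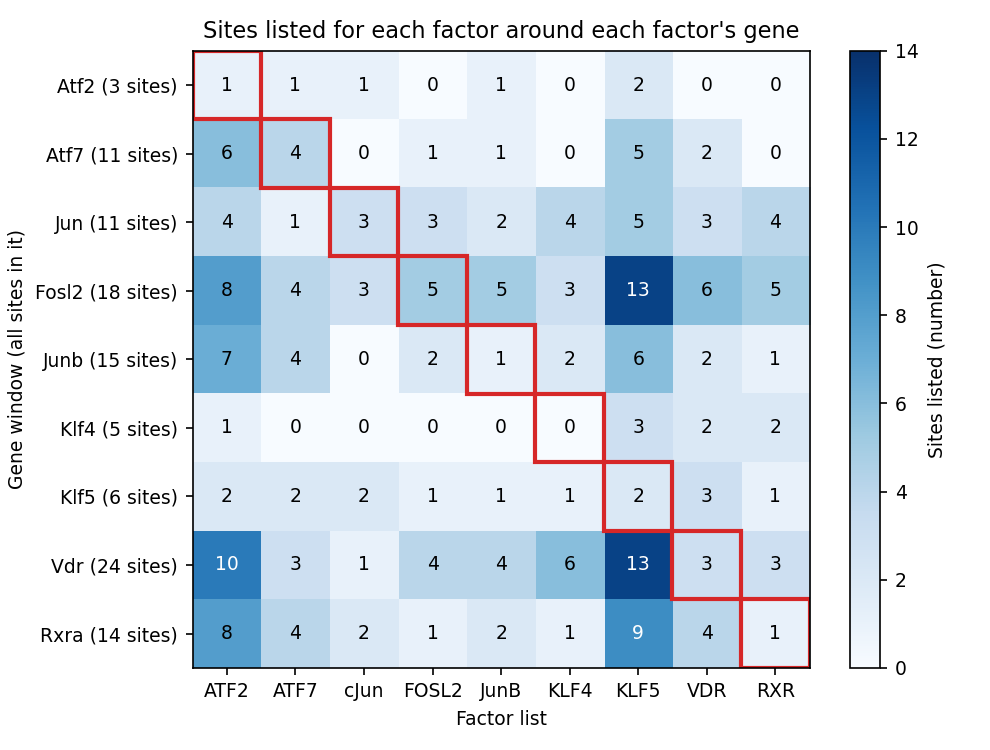
Each cell gives the number of sites in a gene's window (row) that were listed for a factor (column); red boxes mark the gene's own factor. The boxes hold 1, 4, 3, 5, 1, 0, 2, 3 and 1 sites, and the columns of ATF2 and KLF5 have no empty cell.

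**Figure D5:**
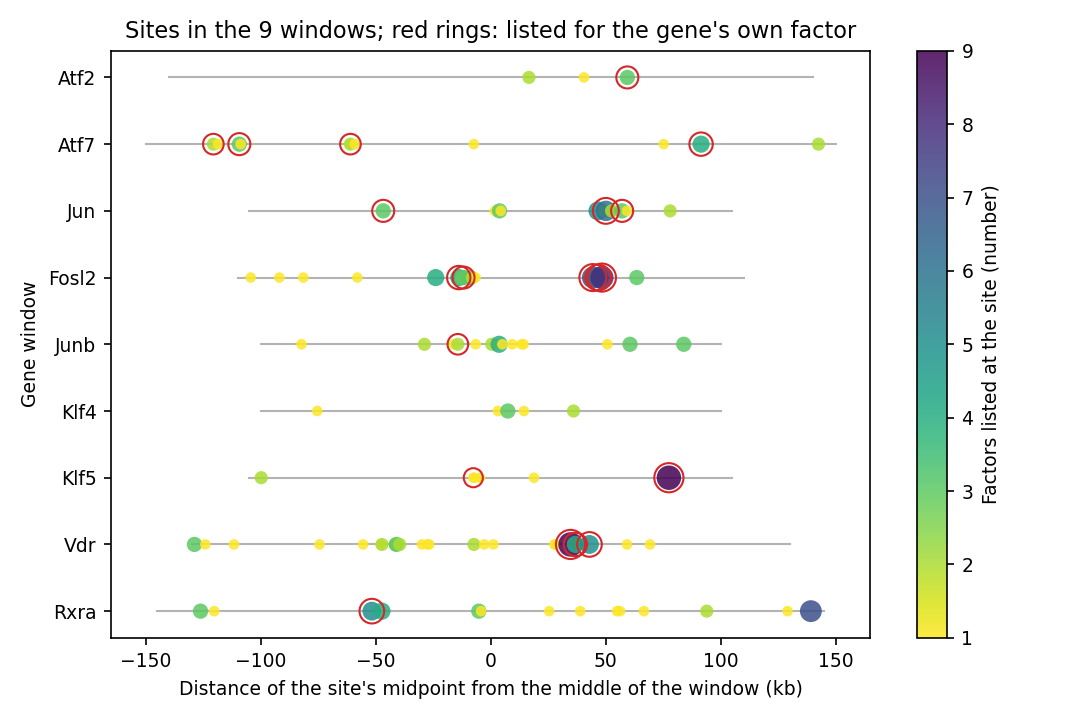
Each point is a site, placed by the distance of its midpoint from the middle of the window, with size and colour by the number of factors; red rings mark sites listed for the gene's own factor. Ringed sites lie 60.9 to 121 kb from the middle at Atf7, on either side of the middle at Jun, Fosl2 and Klf5, and 34.8 to 43.0 kb above it at Vdr.

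Atf2 had the fewest sites and no hotspot. Its 3 sites were a cJun and JunB site, a KLF5 site, and chr2:73749283-73749682, 59.5 kb above the middle, where ATF2, ATF7 and KLF5 were listed. This last site carried both products of the ATF pair. At least 1 ATF2 site was present in 41.8% of genome windows of that width, a share that counts windows with no site of any list. FOSL2, KLF4, VDR and RXR had no site in the window.

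Around Atf7, ATF2 was listed at 6 of 11 sites, KLF5 at 5 and ATF7 at 4. VDR was listed at 2, and FOSL2 and JunB at 1 each. cJun, KLF4 and RXR had no site there. An ATF factor was listed at 63.6% of these sites, against 71.4% of the sites at Rxra and 40.5% of all sites. At least 1 ATF7 site was present in 36.0% of genome windows of 300 kb, which held 0.862 ATF7 sites on average. The same genome windows held 4.06 sites of any list on average, against 11 at Atf7. Here and for the genes below, such values count genome windows with no site of any list. The site with the most factors was chr15:102501345-102501744, 91.5 kb above the middle, with ATF2, ATF7, KLF5 and VDR. The other 3 ATF7 sites were chr15:102300572-102300971 with ATF2 and VDR, chr15:102289292-102289691 with ATF2, and chr15:102348890-102349289 with KLF5. ATF2 was thus listed at 3 of the 4 ATF7 sites. In the other direction the pair also met: ATF7 was listed at 1 site of the Atf2 window. All 4 ATF7 sites lay between 60.9 and 121 kb from the middle, and in a window narrowed by 50 kb at either end 2 of 6 sites listed ATF7.

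At Jun, cJun was listed at 3 of 11 sites, FOSL2 and VDR at 3 each, JunB at 2, ATF7 at 1, ATF2, KLF4 and RXR at 4 each, and KLF5 at 5. At least 1 cJun site was present in 28.0% of genome windows of 210 kb, with a mean of 0.506 per window. Sites of any list averaged 2.84 in these genome windows, against 11 at Jun. The 3 cJun sites were chr4:94764954-94765353, chr4:94668145-94668544 and chr4:94772015-94772414. The first of them was the site with the most factors at Jun: cJun, JunB, KLF4, KLF5, VDR and RXR, 50.2 kb above the middle. The second, 46.7 kb below the middle, held the AP-1 subunits cJun, FOSL2 and JunB and nothing else, and the third, 57.2 kb above, held cJun, FOSL2 and KLF5. ATF2 was at none of these 3.

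The sites nearest to the middle of the Jun window were of another kind; they were singled out after their values were seen. Within 3.03 kb lay chr4:94716635-94717034 with ATF2 alone, chr4:94718715-94719114 with ATF2, ATF7 and FOSL2, and chr4:94719261-94719660 with ATF2 alone, from 1.83 to 4.46 kb above the middle. No cJun, JunB, KLF or receptor site was listed in this group. Whether any of them covers the TGACATCA element printed above was not tested, since the builds differ. From 46.7 to 59.3 kb above the middle, a second group of 6 sites spanned 13.0 kb and held 8 of the 9 factors, all but ATF7; KLF5 was listed at 5 of the 6 and KLF4 at 4. The other hotspot at Jun lay in this group, at chr4:94761484-94761883, with ATF2, both KLF factors and both receptors.

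Fosl2 had the most own-factor sites and the most hotspots of the 9 windows by number, but not by share. Hotspots made up 16.7% of its sites, against 16.2% of all sites and 18.2% at Jun. Its own-factor share was 27.8%, against 18.1% of all sites, and was higher at Atf7 (36.4%), Atf2 and Klf5 (33.3% each). FOSL2 was listed at 5 of 18 sites, KLF5 at 13, ATF2 at 8, VDR at 6, JunB and RXR at 5 each, ATF7 at 4, and cJun and KLF4 at 3 each. At least 1 FOSL2 site was present in 26.8% of genome windows of 220 kb, with a mean of 0.539. Sites of any list averaged 2.98 in these genome windows, against 18 at Fosl2. The FOSL2 sites fell in 2 groups. Below the middle, 7 sites within 7.72 kb held FOSL2 at chr5:32435988-32436387 (with ATF2, KLF4 and KLF5) and chr5:32438060-32438459 (with ATF2 and ATF7). No cJun, JunB or RXR site was listed in this group, so FOSL2 was here listed with ATF2 and with no other AP-1 subunit. The next site below the group, chr5:32425981-32426380, listed cJun, JunB, KLF5 and VDR. Its midpoint lay 10007 bp from that of the nearest site in the group, just over the 10 kb up to which neighbours were joined.

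Above the middle of the Fosl2 window, from 43.3 to 48.4 kb, 5 sites within 5.53 kb held all 9 factors between them and the 3 hotspots. The richest was chr5:32498238-32498637 with every factor but VDR, 8 in all. chr5:32494304-32494703 held 7, every factor but cJun and KLF4, and chr5:32496617-32497016 held 6, ATF2, FOSL2, JunB, KLF5, VDR and RXR. FOSL2, ATF2, JunB, KLF5 and RXR were listed at each of these 3. JunB was listed at 4 of the 5 sites in this group, against none of the 7 sites of the group below the middle. The site left just outside that lower group by the 10 kb limit did list JunB, so this contrast depends on where the group ends.

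The 15 sites around Junb included 3 with an AP-1 subunit (20.0%, exact 95% interval 4.33 to 48.1, against 41.0% of all sites, which lies within it). JunB was listed at 1 of 15 sites and FOSL2 at 2, while ATF2 was listed at 7, KLF5 at 6, ATF7 at 4, KLF4 and VDR at 2 each and RXR at 1. cJun had no site in the window, although JunB had 2 at Jun. At least 1 JunB site was present in 36.0% of genome windows of 200 kb. The own site, chr8:87485600-87485999, was shared with RXR and lay 14.2 kb below the middle. The site with the most factors was chr8:87503518-87503917, 3.72 kb above the middle, with ATF2, ATF7, KLF4 and KLF5. With the window widened by 50 kb at either end, 24 sites were found, still with 1 JunB site. Around the middle, 10 sites lay within 30.8 kb, 5 of them with ATF2 and none with cJun. The 8 ATF sites of the Junb window lacked AP-1 subunits, as did the 7 at Atf7 and the single ones at Atf2 and Klf4. Elsewhere 8 of 11 ATF sites did at Vdr, 8 of 10 at Rxra, 3 of 4 at Jun, 2 of 3 at Klf5 and 3 of 8 at Fosl2. In the 9 windows together, 41 of 53 ATF sites lacked them, and over all sites with ATF2 or ATF7, 62.2% did.

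The KLF genes had 5 and 6 sites, against a mean of 2.71 and 2.84 in genome windows of the same widths. At Klf4 no KLF4 site was listed, while KLF5 was listed at 3 of 5 sites, VDR and RXR at 2 each and ATF2 at 1. Neither AP-1 nor ATF7 had a site in the window. At least 1 KLF4 site was present in 24.3% of genome windows of 200 kb, a share that counts windows with no site of any list. Windows with about as many sites as at Klf4 were not compared. The nearest KLF4 sites on the chromosome lay 617 kb below and 433 kb above the middle, at chr4:54923145-54923544 and chr4:55972907-55973306. The site with the most factors was chr4:55547337-55547736, 7.54 kb above the middle, with KLF5, VDR and RXR.

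At Klf5, KLF5 was listed at 2 of 6 sites, VDR at 3, ATF2, ATF7 and cJun at 2 each, and FOSL2, JunB, KLF4 and RXR at 1 each. At least 1 KLF5 site was present in 43.2% of genome windows of 210 kb, with a mean of 1.40. All 9 factors met at chr14:99782354-99782753, 77.6 kb above the middle. This 1 site held the only FOSL2, JunB, KLF4 and RXR listings of the window. The other KLF5 site, chr14:99697315-99697714, lay 7.49 kb below the middle and listed nothing else. An ATF7 site overlapped it, with midpoints 381 bp apart. With the window narrowed by 50 kb at either end, that lone KLF5 site was the only own site left. KLF4 was listed at 1 of 6 sites at Klf5 (16.7%, against 16.9% of all sites), and KLF5 at 3 of 5 at Klf4 (60.0%, against 49.3%).

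The window of Vdr had the most sites of the 9. A receptor was listed at 12.5% of them, against 28.0% of the 107 sites and 46.0% of all sites. In the other windows this share ran from 0 at Atf2, 18.2% at Atf7 and 20.0% at Junb up to 60.0% at Klf4. VDR and RXR were each listed at 3 of 24 sites, KLF5 at 13, ATF2 at 10, KLF4 at 6, FOSL2 and JunB at 4 each, ATF7 at 3 and cJun at 1. At least 1 VDR site was present in 42.1% of genome windows of 260 kb, with a mean of 1.20. The 3 VDR sites were also the 3 RXR sites. They lay 34.8 to 43.0 kb above the middle, at chr15:97744586-97744985 with all 9 factors, chr15:97752818-97753217 with JunB, KLF4, KLF5, VDR and RXR, and chr15:97746700-97747099 with ATF2, KLF5, VDR and RXR. KLF5 was listed at each of them.

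A different set lay below the middle of the Vdr window. There, from 55.4 to 26.7 kb below the middle, 10 sites within 29.1 kb listed KLF5 at 5, KLF4 and ATF2 at 4 each, FOSL2 and JunB at 1 each, and neither receptor. KLF4 was listed at 6 of 24 sites around Vdr (25.0%) and at 4 of 11 around Jun (36.4%), against 16.9% of all sites. These windows were named after the values were seen, as those with the highest KLF4 share, and no interval was computed for them. At Vdr some KLF4 sites were close neighbours, with midpoints 452 and 726 bp apart, and so are not independent. In the other windows the KLF4 share was lower: 16.7% at Fosl2 and Klf5, 13.3% at Junb, 7.14% at Rxra, and 0 at Atf2, Atf7 and Klf4. Neither receptor was listed below the middle of the window; the nearest VDR site on that side lay outside it, 186 kb away, and held 8 factors.

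Around Rxra, RXR was listed at 1 of 14 sites and its partner VDR at 4. KLF5 was listed at 9, ATF2 at 8, ATF7 at 4, cJun and JunB at 2 each, and FOSL2 and KLF4 at 1 each. At least 1 RXR site was present in 42.8% of genome windows of 290 kb, with a mean of 1.37. The RXR site, chr2:27523195-27523594, lay 51.6 kb below the middle with ATF2, ATF7, KLF5 and VDR. The site with the most factors, chr2:27714082-27714481, held 7, every factor but ATF7 and RXR, and lay 139 kb above the middle, near the end of the window. With the window widened by 50 kb at either end, RXR was listed at 3 of 19 sites. Within the window as given, the receptor pair was listed jointly at 3 sites around Vdr and at 1 around Rxra.

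Partners that share sites over the whole lists did so here as well, on small numbers. Of 12 cJun sites, 9 were shared with JunB (75.0%, 42.8 to 94.5 as the exact 95% interval), against 80.1% of all cJun sites. Of 23 ATF7 sites, 17 were shared with ATF2 (73.9%, 51.6 to 89.8), against 65.9%, and KLF5 at 14 of 17 KLF4 sites (82.4%, 56.6 to 96.2), against 86.4%. These 3 intervals held the share over all sites. VDR was listed at 12 of 17 RXR sites (70.6%, 44.0 to 89.7), against 65.5%, and RXR at 12 of 25 VDR sites (48.0%, 27.8 to 68.7), against 67.1%. RXR was listed at fewer of the KLF sites: 6 of 17 KLF4 sites (35.3%, 14.2 to 61.7), against 71.0%, and 13 of 58 KLF5 sites (22.4%, 12.5 to 35.3), against 49.2%. In these last 2 pairs, which were picked after the values were seen, the interval lay below the share over all sites. The interval for JunB at KLF5 sites (11 of 58) did so too. RXR was low at the 107 sites as a whole (15.9%, against 34.8%). It was also below its share over all sites at the sites of every other factor, with intervals that held that share. Whether RXR was lower at KLF sites than at other sites was not tested.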

How the data were processed

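ChIP-seq site lists of 9 factors were used, 1 library each; the remaining 21 of 30 labelled samples stayed out of the work. The authors deposited each list as chromosome, start and end alone, with every interval 400 bp long. The submitters' processing notes name mm9 as the build and Bowtie, HOMER and FastQC as tools; roles, versions, control and peak threshold were not given in the sources used here. Shared sites have the same coordinates in every list, so sharing means listing of the same interval. The closest midpoints of 2 intervals were 201 bp apart. Sites on chromosomes 1 to 19 and X were kept (34724; 2 on chromosome Y were left out). Members, windows and lists were chosen with earlier results of these data known.

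Coordinates are 1-based mm9. Shares carry exact Clopper-Pearson 95% intervals. Genome windows of each gene's width were laid end to end from the first to the last site of a chromosome. Groups of sites join neighbours up to 10 kb apart. Sites named by position were the own-factor sites (at most 5 per window) and those with the most factors (at most 3); the other named sites were chosen after their values were seen. Relatives with no library were not described, as no mm9 annotation was used here. The calculations were tested on simulated lists with planted sites. Alternatives were other window sizes, any overlap in place of the midpoint, joined sites, other hotspot thresholds, left-out lists or windows, and other genome windows. Python 3.11.15, numpy 2.4.6, scipy 1.17.1, pandas 2.3.3 and matplotlib 3.10.9 were used.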

Additional observations from a re-analysis of the deposited data

How the results depend on the processing

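The 8 windows with an own-factor site remained 8 under any overlap and with windows narrowed or widened by 50 kb, and KLF4 had no site at Klf4 in each of these. The 107 sites became 81 in narrowed windows, 129 in widened ones and 91 when sites within 1 kb were joined; own-factor sites numbered 16, 24 and 20. With 4 or more factors required, 16 sites were hotspots in place of 10, since by construction a lower threshold takes in more sites. With 6 or more there were 7, and without any 1 list 7 to 10. Among genome windows with at least 1 site, the share holding as many sites as the gene's window rose by construction, as empty windows were dropped. It was 1.04% for Vdr, 2.16% for Fosl2, 3.27% for Junb, 9.56% for Rxra, 10.1% for Jun, 18.6% for Atf7, 33.6% for Klf5, 41.1% for Klf4 and 72.1% for Atf2. Shifted genome windows, or leaving out chromosome 10, moved none of the 9 shares beyond its 95% interval. None of the 99 alternative values of the factors' shares left the interval of the main value. The depth of the libraries is unknown, and a factor missing from a window may lie under the threshold. No paired analysis was possible because each factor had 1 library and no test was run.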

Other observations

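The lists gave unequal parts of themselves to these windows. Of the ATF2 list 0.407% lay in them, of the KLF5 list 0.339%, of ATF7 0.312%, of KLF4 0.289%, of FOSL2 0.271%, of VDR 0.212%, of cJun 0.194%, of JunB 0.169% and of RXR 0.141%, against 0.308% of all sites. Where 1 side of a window held no own-factor site, the nearest one lay beyond its end. The next JunB site above the middle of the Junb window, at chr8:87656342-87656741, was 157 kb away and listed every factor but FOSL2. The next ATF2 site below the middle of the Atf2 window, at chr2:73390954-73391353, was 299 kb away and listed ATF2 and FOSL2. The RXR site at chr2:27744278-27744677, 169 kb above the middle of the Rxra window, listed ATF2, ATF7, JunB, KLF5, VDR and RXR.

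Sites in the windows lay closer together than sites over all chromosomes, with a median distance between neighbours of 6.88 kb against 16.2 kb. Distances that cross the edge of a window were not counted there, which by construction favours short ones. This bears on the share within 1 kb below as well, and the higher density of sites in the windows was not taken into account. Of 98 pairs of neighbours, 16 (16.3%, against 10.3% over all sites) lay within 1 kb. In 6 of these 16 the neighbours had no factor in common, and in 2 the intervals overlapped. Neither count was set against close neighbours over all sites, so both describe these pairs alone. At Vdr, a JunB site and an ATF2 site had midpoints 213 bp apart and each listed nothing else. Whether such pairs are 1 site listed in 2 places was not tested.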
